A study of Mus musculus with 4 samples.

Results

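Fatty acid uptake and oxidation genes were read in 4 mouse hearts, 3 from MAFbx knockout mice and 1 from a wild type mouse. The set covers the proteins that bring fatty acids into the cell, carry them into mitochondria and oxidise them there, together with uncoupling proteins and the PPAR-alpha regulators. Of 35 listed genes, 32 had a probe set annotated with that gene symbol alone, out of 19938 genes so represented on the array. Acsl1, Cpt1b and Ucp2 were not analysed here. All 32 passed the filter on dim probe sets and were tested among 14914 genes. The list was drawn from the textbook pathway, with earlier results of these arrays known.

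All 4 hearts, knockout and wild type alike, came from mice that had undergone transverse aortic constriction (TAC). The operation narrows the aorta and loads the left ventricle with pressure, and total RNA of the heart was taken 1 week later. MAFbx (atrogin-1, encoded by Fbxo32) is a muscle F-box protein that selects proteins for ubiquitination. The labels name the genotype "MAFbx KO" and give no allele, strain, age or sex. Unoperated hearts were not analysed here, so every value describes the loaded heart. Nothing in the labels states that each numbered heart came from its own animal. The p-values therefore measure the spread between these arrays, which may in part be technical. A single wild type array shows no spread, and the test takes that of the knockout arrays for it.

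The adult heart takes most of its energy from fatty acids. Long-chain fatty acids are released from lipoproteins at the capillary wall, taken up, joined to coenzyme A, passed into mitochondria as carnitine esters and shortened 1 acetyl unit at a time in the beta-oxidation spiral. The nuclear receptor PPAR-alpha and its coactivator PGC-1-alpha drive transcription of many of these genes. In the pressure-loaded heart this programme is known to be turned down as glucose use grows.

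Some facts of the whole series bear on what follows. Fbxo32 read 5.65, 5.61 and 5.56 (log2) in knockouts 1, 2 and 3, against 7.54 in wild type 1, lower in the hearts labelled knockout. The place of the probe set relative to the deletion was not analysed here, so this reading goes with the labels but does not show what was deleted. Xist, transcribed from the inactive X chromosome, read 9.18, 9.52 and 3.20 in the same order, against 4.13 in wild type 1. The Y-linked gene Eif2s3y read 3.31, 3.64 and 8.49, against 8.57. Knockout 3 thus shared with wild type 1 a sex-linked pattern that knockouts 1 and 2 did not have. The spread among the knockout arrays, from which every SE was taken, includes any difference that goes with this pattern. With a single wild type array, differences of genotype and of this pattern can be told apart only between knockout 3 and wild type 1, and the values of knockout 3 are therefore given throughout.

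Nearly all members read higher in knockouts 1 and 2 than in the wild type heart, and about level with it in knockout 3. In knockout 1, 31 of 32 members lay above wild type 1 (50.4% of all genes tested did), in knockout 2 also 31 (48.6%), and in knockout 3 19 (47.1%). The median difference over members was 0.455 (log2) in knockout 1, 0.475 in knockout 2 and 0.045 in knockout 3, against 0.01, 0.00 and -0.01 over all genes tested. The member below wild type 1 on every knockout array was Angptl4, an inhibitor of lipoprotein lipase.

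With the 3 knockout arrays set against wild type 1, 0 of 32 members passed the limma test at an adjusted p of 0.05, and 1 gene among all tested did (0.00671%). At an unadjusted p under 0.05, 2 members were higher (Ucp3 and Echs1; 1.68% of all genes were) and 1 was lower (Angptl4; 4.05% of all genes were). The median log2 fold change, knockout minus wild type, was 0.31 over members and 0.00 over all genes. All 3 knockout arrays lay above the wild type array for 19 members (23.9% of all genes tested) and below it for 1 member (24.6%). Without knockout 3 the count above was 31 members (35.6% of all genes). In that fit 15 members were higher at an unadjusted limma p under 0.05 (4.14% of all genes), with 0 past the threshold. The number of members higher at this unadjusted p was 1 without knockout 1 and 0 without knockout 2. The fit without knockout 3 sets knockouts 1 and 2, high in Xist and low in Eif2s3y, against a wild type array with the opposite pattern. It therefore cannot tell genotype from the sex-linked pattern. Leaving out knockout 3 made the log2 fold change of 12 members more than 1.5 times as large (24.4% of all genes tested). The members were also more spread among the knockout hearts than most genes were. Their SD over the 3 knockout arrays had a median of 0.30, against 0.16 over all genes tested.

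**Figure D1:**
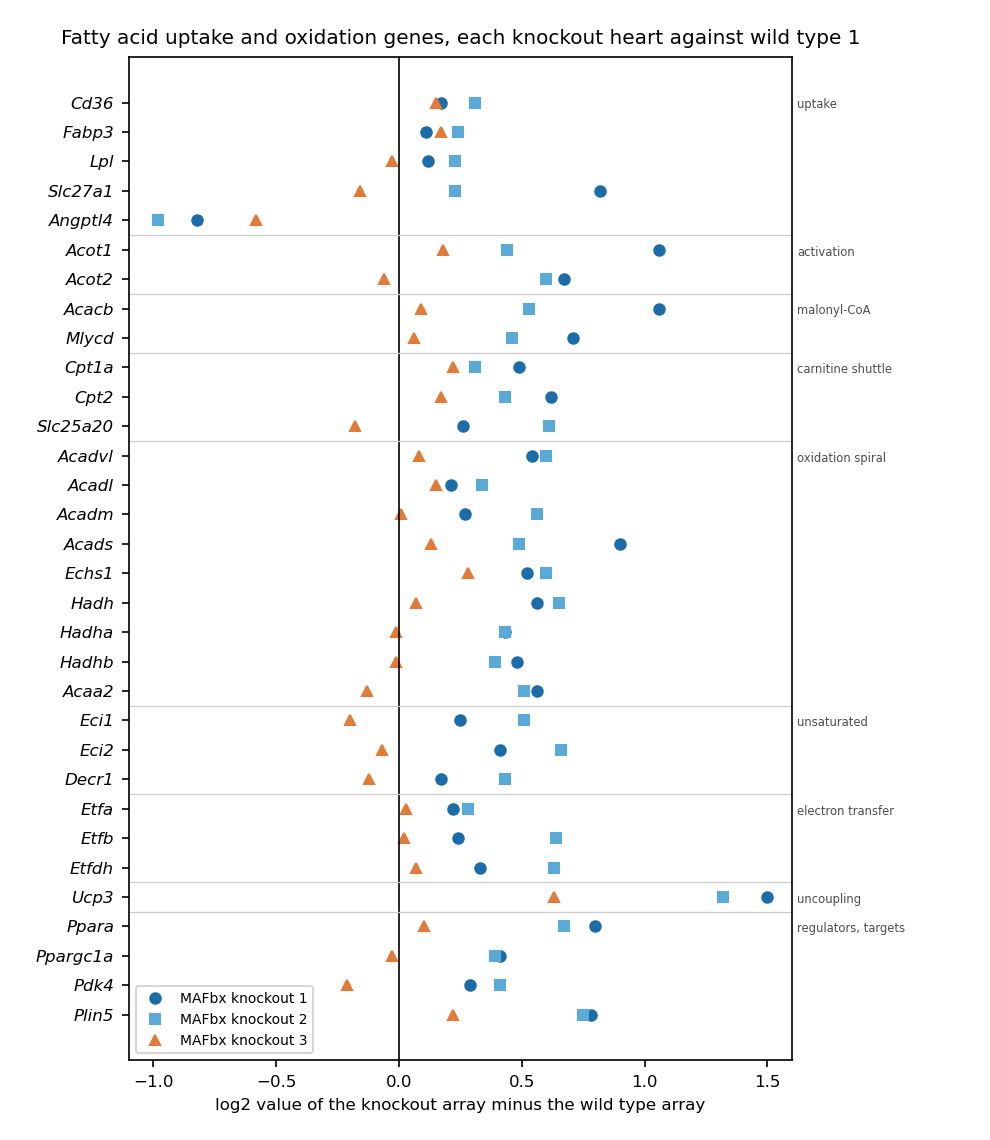
Each point is the log2 value of 1 knockout array minus that of the wild type array, for the 32 members grouped by role down the page. Circles (knockout 1) and squares (knockout 2) lie right of 0 for 31 members, whereas triangles (knockout 3) lie right of 0 for 19, and Angptl4 lies left of 0 on all 3 arrays.

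Knockout 3 was the lowest of the 3 knockout arrays for 30 members, a position that it held for 36.7% of all genes tested. The exceptions were Angptl4 and Fabp3. For 18 members it lay between wild type 1 below and the other knockout arrays above (10.7% of all genes). It lay nearer to wild type 1 than to the mean of knockouts 1 and 2 for 26 members (52.6% of all genes), and within 0.1 of wild type 1 for 15 members (35.7% of all genes). Knockouts 1 and 2 were within 0.1 of wild type 1 for 0 members each (30.1% and 30.2% of all genes). Differences from wild type 1 larger than 0.5 were found for 15 members in knockout 1 (13.2% of all genes), for 16 in knockout 2 (11.4%) and for 2, Ucp3 and Angptl4, in knockout 3 (6.55%).

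Ucp3, the mitochondrial uncoupling protein of muscle and a known PPAR-alpha target, had the largest difference of the members. It read 7.92, 7.74 and 7.05 (log2) in knockouts 1, 2 and 3, against 6.42 in wild type 1. All 3 knockout arrays were above the wild type array, with knockout 3 the nearest to it. The log2 fold change was 1.15 (SE 0.33; 95% interval 0.37 to 1.93), a level 2.22-fold higher, and the limma adjusted p was 0.564. Leaving out knockout 1, 2 or 3 gave 0.975, 1.065 and 1.41, and knockout 3 against wild type 1 alone gave 0.63.

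Because Ucp3 and other members are known targets of nuclear receptors that bind repeats of AGGTCA, the promoters were searched for that hexamer. RefSeq windows (GRCm38.p6) of 250 bases before to 50 after the start were at hand for 28 member genes, 31 windows in all. AGGTCA, searched on both strands, was in 9 of the 31 windows (29%) and in 16.3% of all 32851 windows. The direct repeat AGGNCANAGGNCA with at most 1 mismatch was in 6 windows (19.4%, against 4.71% of all), those of Cd36, Mlycd, Echs1, Hadh, Etfa and Etfb. In this looser pattern N is any base, and none of these matches contains AGGTCA itself. With up to 2 mismatches it was in 51.6% against 34.9%. The motif TNAAGGTCA, known from estrogen-related receptors, was in 0 of 31 windows, against 1.28% of all. TNAAGGTCA contains AGGTCA, and the direct repeat can overlap it. These are matches of letters, and binding was not measured.

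The windows shown are those of Ucp3, the member with the largest difference, Echs1, with the smallest p of the oxidation spiral, and Cd36, the fatty acid translocase, which hold the hexamer and, in Echs1 and Cd36, the repeat. Capitals mark AGGTCA or the direct repeat with at most 1 mismatch, on either strand, and each sequence runs 5′ to 3′ on the strand of its gene.
Ucp3, chr7:100472741-100473040, plus strand: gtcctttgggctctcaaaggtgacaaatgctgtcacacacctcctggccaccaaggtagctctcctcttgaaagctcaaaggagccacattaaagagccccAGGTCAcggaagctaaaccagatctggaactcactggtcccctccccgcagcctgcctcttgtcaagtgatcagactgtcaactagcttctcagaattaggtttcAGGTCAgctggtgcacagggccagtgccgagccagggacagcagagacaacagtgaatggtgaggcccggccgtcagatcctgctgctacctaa
Echs1, chr7:140116372-140116671, minus strand: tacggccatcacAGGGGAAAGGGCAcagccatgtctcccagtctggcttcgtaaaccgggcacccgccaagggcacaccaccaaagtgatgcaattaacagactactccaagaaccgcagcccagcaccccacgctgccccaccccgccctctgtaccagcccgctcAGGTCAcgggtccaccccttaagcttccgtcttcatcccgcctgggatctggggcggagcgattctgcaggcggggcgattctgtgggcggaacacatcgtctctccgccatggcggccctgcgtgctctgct
Cd36, chr5:17835847-17836146, minus strand: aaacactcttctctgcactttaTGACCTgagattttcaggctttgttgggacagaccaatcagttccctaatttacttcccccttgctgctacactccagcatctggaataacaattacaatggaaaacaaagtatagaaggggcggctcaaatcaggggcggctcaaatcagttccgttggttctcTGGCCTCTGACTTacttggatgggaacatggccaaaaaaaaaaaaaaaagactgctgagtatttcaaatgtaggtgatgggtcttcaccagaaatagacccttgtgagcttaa

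In the Ucp3 window the hexamer begins 149 and 44 bases before the start. The Echs1 window holds a direct repeat beginning 238 bases before the start and a hexamer at 83 bases before it. In the Cd36 window, both on the opposite strand, a hexamer begins 228 bases and the repeat 63 bases before the start.

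The uptake genes held both the sole member that was lower and some of the smallest differences. Angptl4 read 5.88, 5.72 and 6.12 in knockouts 1, 2 and 3, against 6.70 in wild type 1, and all 3 knockout arrays were below the wild type array. Its level was 1.73-fold lower in the knockout hearts, at a log2 fold change of -0.79 (SE 0.21, with an adjusted p of 0.535 by limma) and the smallest unadjusted p of the members (0.00674). The difference was -0.58 between knockout 3 and wild type 1. Angptl4 is itself a PPAR target, and is also known to respond to hypoxia and glucocorticoids.

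Lpl, the lipoprotein lipase that Angptl4 inhibits, read 12.60, 12.71 and 12.45 in the knockout hearts, against 12.48 in wild type 1. Its groups overlapped, with knockout 3 below wild type 1, and its log2 fold change of 0.11 (95% interval -0.34 to 0.55) was the smallest of the members, at 0.045 without knockout 2. Cd36, the fatty acid translocase, read 12.05, 12.19 and 12.03 against 11.88 in wild type 1. Fabp3, the fatty acid binding protein of the heart cytosol, read 13.12, 13.25 and 13.18 against 13.01. For Cd36 and Fabp3 every knockout array was above the wild type array, by 0.11 to 0.31, with log2 fold changes of 0.21 and 0.17 (SE 0.18 and 0.17). A second Fabp3 probe set gave 0.18. Slc27a1, the fatty acid transport protein FATP1, had the widest spread of the members (SD 0.49, n = 3), with 9.91, 9.32 and 8.93 in knockouts 1, 2 and 3 against 9.09 in wild type 1. Its log2 fold change of 0.30 became 0.035 without knockout 1.

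The thioesterase genes Acot1 and Acot2 encode enzymes that release free fatty acids from coenzyme A, Acot1 in the cytosol and Acot2 in mitochondria. Acot1 read 7.0, 6.38 and 6.12 in knockouts 1, 2 and 3, against 5.94 in wild type 1. Its log2 fold change was 0.56 (SE 0.33; limma adjusted p = 0.923), and 0.31 without knockout 1. Acot2 read 10.20, 10.13 and 9.47 against 9.53, so that knockouts 1 and 2 were higher by 0.67 and 0.60 and knockout 3 was lower by 0.06. These genes are adjacent on chromosome 12 and close in sequence, so cross-hybridisation between their probes was not tested.

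Malonyl-CoA blocks the entry of fatty acids into mitochondria, and the genes for the enzyme that makes it there and the enzyme that breaks it down differed in the same direction. Acacb, acetyl-CoA carboxylase 2, read 10.23, 9.70 and 9.26 in knockouts 1, 2 and 3, against 9.17 in wild type 1. Mlycd, malonyl-CoA decarboxylase, read 7.73, 7.48 and 7.08 against 7.02. In both genes knockout 1 was highest, knockout 3 was within 0.1 of wild type 1, and no knockout array overlapped the wild type value. The log2 fold changes were 0.56 for Acacb and 0.41 for Mlycd (SE 0.34 and 0.26; limma adjusted p = 0.923 and 0.925), and 0.31 and 0.26 without knockout 1.

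Of the listed carnitine palmitoyltransferase genes of the shuttle, Cpt1a and Cpt2 were higher on every knockout array, and Cpt1b was not analysed. The carrier gene was higher in knockouts 1 and 2. Cpt1a, the liver form of carnitine palmitoyltransferase 1 at the outer membrane, read 8.70, 8.52 and 8.43 in knockouts 1, 2 and 3, against 8.21 in wild type 1. Cpt2, which returns the acyl group to coenzyme A inside, read 10.30, 10.11 and 9.85 against 9.68. Every knockout array of Cpt1a and Cpt2 was above the wild type array, by 0.17 or more. Their log2 fold changes were 0.34 (SE 0.19) and 0.41 (SE 0.22), with a limma adjusted p of 0.923 for both. Slc25a20, the carnitine-acylcarnitine carrier, read 9.93, 10.28 and 9.49 against 9.67, with knockout 3 below wild type 1, and its log2 fold change of 0.23 became 0.04 without knockout 2.

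**Figure D2:**
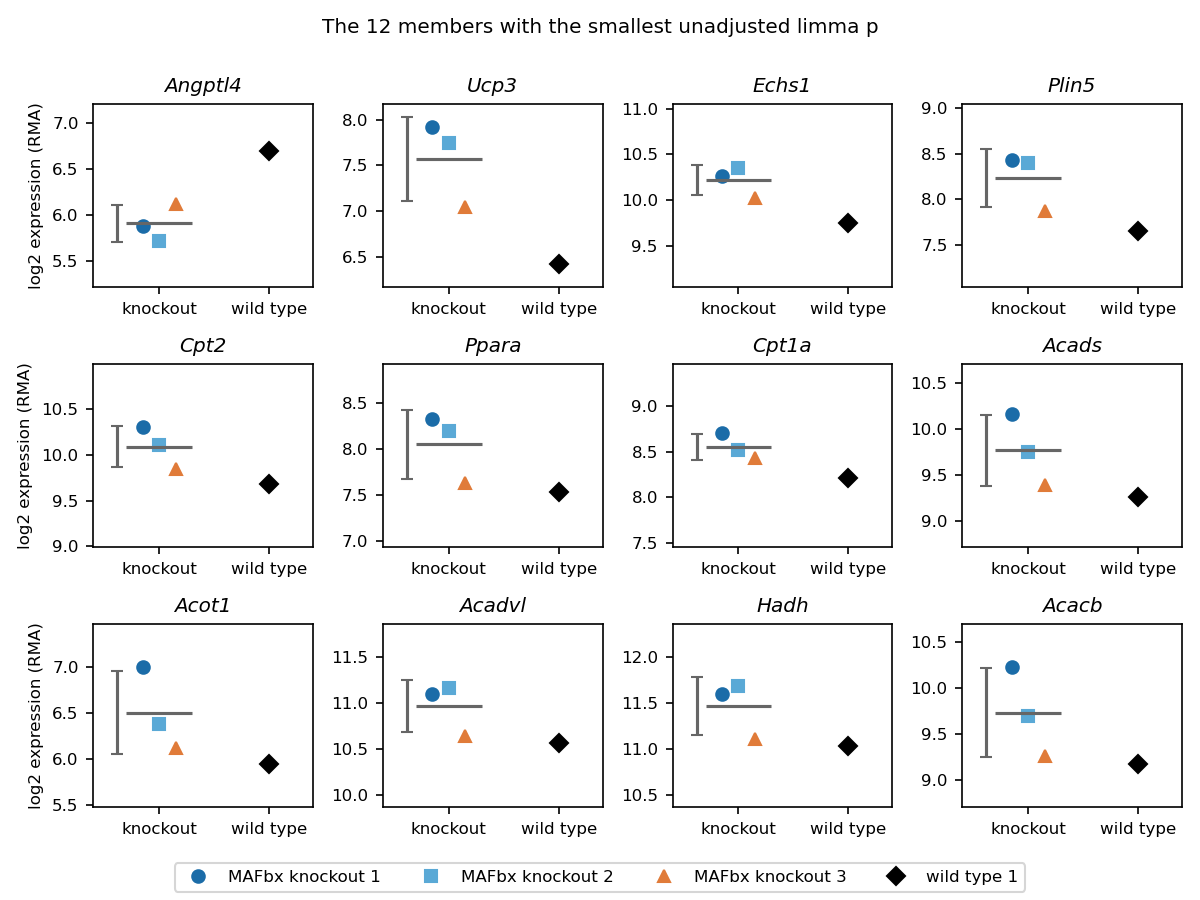
Log2 expression of the 12 members with the smallest unadjusted p, with the knockout arrays (coloured symbols) left of wild type 1 (black diamond); horizontal lines are the knockout mean and bars its SD (n = 3), and every panel spans 2 log2 units. In 11 panels all knockout points lie above the wild type point, and knockout 3 is the nearest to it; in the Angptl4 panel they lie below it.

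All 9 genes of the beta-oxidation spiral lay above wild type 1 in knockouts 1 and 2 (35.6% of all genes tested), and 6 of them also in knockout 3 (23.9%). The first step is taken by acyl-CoA dehydrogenases of falling chain length. Acadvl, the very-long-chain enzyme, read 11.10, 11.16 and 10.64 in knockouts 1, 2 and 3, against 10.56 in wild type 1. Acadl, the long-chain enzyme, read 11.69, 11.82 and 11.63 against 11.48, and had a knockout SD of 0.10, among the smallest. Acadm, the medium-chain enzyme, read 12.43, 12.72 and 12.17 against 12.16, and in knockout 3 it was 0.01 above wild type 1. Acads, the short-chain enzyme, read 10.16, 9.75 and 9.39 against 9.26. The log2 fold changes were 0.41 for Acadvl, 0.23 for Acadl, 0.28 for Acadm and 0.51 for Acads (SE 0.24, 0.18, 0.24 and 0.29). Acadm stood at 0.14 without knockout 2, and Acads at 0.31 without knockout 1.

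Of the spiral genes, Echs1 stood highest over wild type 1 in knockout 3. Echs1, the short-chain enoyl-CoA hydratase of the second step, read 10.27, 10.35 and 10.03 in knockouts 1, 2 and 3, against 9.75 in wild type 1. Its log2 fold change was 0.47 (SE 0.20; limma adjusted p = 0.871, unadjusted p = 0.0499), 0.56 without knockout 3, and 0.28 in knockout 3 against wild type 1. Hadh, the hydroxyacyl-CoA dehydrogenase of the third step, read 11.60, 11.69 and 11.11 against 11.04, a log2 fold change of 0.43 (SE 0.26). Acaa2, the mitochondrial thiolase that ends the round, read 11.87, 11.82 and 11.18 against 11.31, and knockout 3 was below wild type 1. Its log2 fold change of 0.31 was 0.19 without knockout 1.

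Hadha and Hadhb encode the subunits of the trifunctional protein, which carries out the later steps for long chains, and their values ran in parallel. Hadha read 11.95, 11.95 and 11.51 in knockouts 1, 2 and 3, against 11.52 in wild type 1. Hadhb read 12.15, 12.06 and 11.66 against 11.67. In both, knockouts 1 and 2 were higher by 0.39 to 0.48 and knockout 3 was lower by 0.01. The Hadhb probe set used gave a log2 fold change of 0.29, and 0.19 without knockout 1. A second Hadhb probe set gave 0.33. It read 12.15, 12.02 and 11.64 against 11.61, so that there knockout 3 was above wild type 1. These neighbours on chromosome 5 are transcribed away from each other from starts 273 bases apart (GRCm38.p6), and their promoter windows share 228 bases. That stretch is shown because it lies between the starts of the 2 members with near-equal values. Its capitals mark the only match to GGGCGG, a GC box, on either strand. The motif is in 64.5% of the 31 member windows and in 35.7% of all windows, which are longer than this stretch.
Hadha and Hadhb, chr5:30155003-30155230, plus strand: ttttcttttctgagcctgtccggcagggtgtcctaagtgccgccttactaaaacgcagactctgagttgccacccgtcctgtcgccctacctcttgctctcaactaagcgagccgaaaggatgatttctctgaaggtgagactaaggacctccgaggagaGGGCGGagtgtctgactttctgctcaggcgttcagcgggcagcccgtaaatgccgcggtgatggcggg

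The genes of enzymes that prepare unsaturated fatty acids for the spiral were higher in knockouts 1 and 2 and lower in knockout 3. Eci1 and Eci2, enoyl-CoA isomerases of mitochondria and peroxisomes, read 10.79, 11.05 and 10.34 and 9.49, 9.74 and 9.01 in knockouts 1, 2 and 3, against 10.54 and 9.08 in wild type 1. Decr1, the dienoyl-CoA reductase, read 10.73, 10.99 and 10.44 against 10.56. In knockout 3 they lay below wild type 1 by 0.07 to 0.20. Their log2 fold changes of 0.19, 0.33 and 0.16 were no larger than their knockout SDs of 0.36, 0.37 and 0.28 (n = 3). Without knockout 2 they became 0.025 for Eci1, 0.17 for Eci2 and 0.025 for Decr1.

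The electron transfer flavoprotein takes electrons from the acyl-CoA dehydrogenases to the respiratory chain. Its subunit genes Etfa and Etfb read 11.21, 11.27 and 11.02 and 11.51, 11.91 and 11.29 in knockouts 1, 2 and 3, against 10.99 and 11.27 in wild type 1. Etfdh, the oxidoreductase that passes the electrons to ubiquinone, read 11.40, 11.70 and 11.14 against 11.07. All 3 genes had every knockout array above the wild type array, but in knockout 3 by 0.02 to 0.07 only. The log2 fold changes were 0.18, 0.30 and 0.34 (SE 0.19, 0.26 and 0.24), and those of Etfb and Etfdh were 0.13 and 0.20 without knockout 2.

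The receptor gene Ppara was above wild type 1 on every knockout array. The coactivator gene Ppargc1a, by the probe set used, was above it in knockouts 1 and 2. Ppara read 8.33, 8.20 and 7.63 in knockouts 1, 2 and 3, against 7.53 in wild type 1, with a difference of 0.52 (log2; SE 0.28, limma adjusted p = 0.923) that stood at 0.735 without knockout 3 and at 0.10 in knockout 3 against wild type 1. Ppargc1a, encoding PGC-1-alpha, read 9.32, 9.30 and 8.88 against 8.91, and its groups overlapped. Its log2 fold change was 0.26, and 0.31 for a second probe set. That second set read 7.91, 7.82 and 7.48 against 7.43, with every knockout array above the wild type array.

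Of the members named in the text as PPAR targets, Ucp3, Plin5, Pdk4 and Angptl4, only Angptl4 had a knockout mean below wild type 1. Plin5, which coats lipid droplets beside mitochondria, read 8.43, 8.40 and 7.87 in knockouts 1, 2 and 3, against 7.65 in wild type 1. Its difference of 0.58 (log2; SE 0.26, limma adjusted p = 0.880) was, among the members that were higher, the next after that of Ucp3. Pdk4, the kinase that shuts pyruvate out of oxidation, read 10.02, 10.14 and 9.52 against 9.73, and its groups overlapped, with knockout 3 lowest of all arrays. The log2 fold change of Pdk4 was 0.16, and 0.10 without knockout 1 and 0.04 without knockout 2. Ucp3 and Plin5 were thus higher, and Angptl4 lower, on every knockout array.

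**Figure D3:**
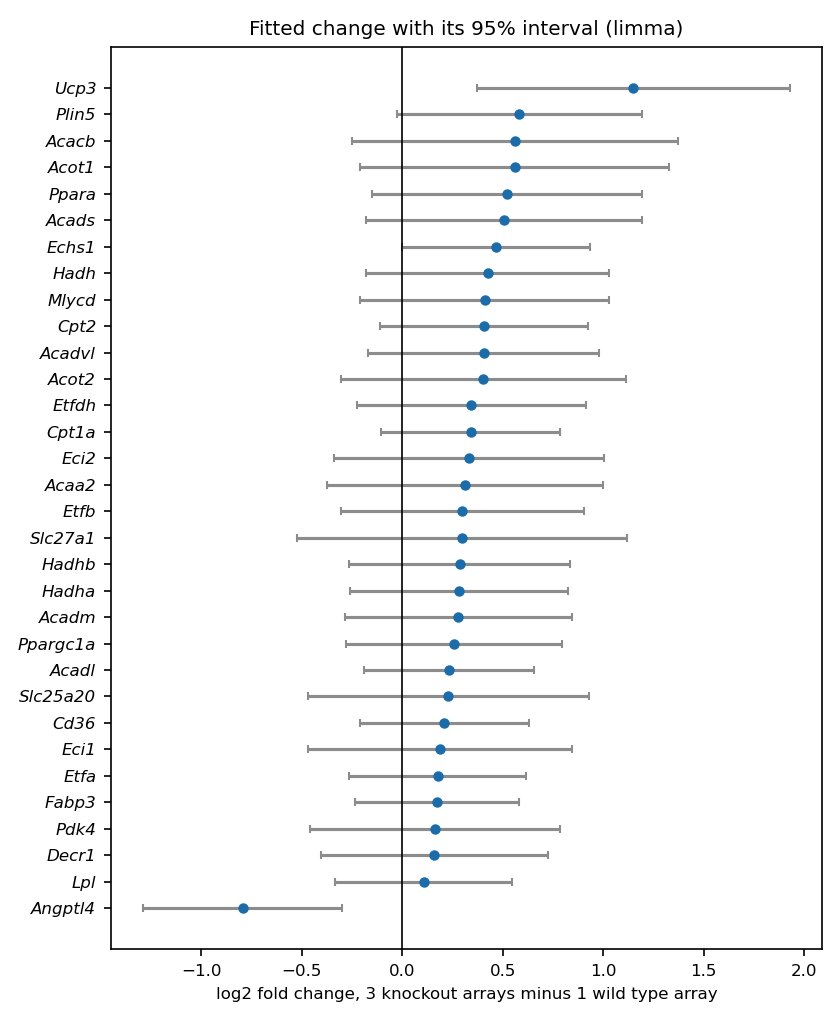
Log2 fold change of the 32 members, 3 knockout arrays minus 1 wild type array, with 95% intervals from the limma fit, sorted by size. Ucp3 at 1.15 and Angptl4 at -0.79 stand at the ends, and the intervals of 29 members include 0.

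Other genes, from lists around fatty acid metabolism written from textbook knowledge, leaned the same way by less. The lists also hold genes of amino acid breakdown, such as Ivd and Pccb, and general regulators, such as Tfam. Of 136 listed genes outside the members, 120 were tested, and 0 passed the limma test at an adjusted p of 0.05, with 5 higher and 2 lower at an unadjusted p under 0.05 (1.68% and 4.05% of all genes tested). All knockout arrays were above wild type 1 for 54 (23.9% of all genes) and below it for 14 (24.6%), and the median log2 fold change was 0.19. In knockouts 1, 2 and 3 the median difference from wild type 1 was 0.265, 0.24 and 0.015. Whether these values differ from those of the members was not tested.

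Among these lists, that of other mitochondrial oxidation genes came closest to the members. It also holds the genes of amino acid breakdown named above and the peroxisomal gene Decr2. Of 22 tested, 12 had all knockout arrays above wild type 1 (23.9% of all genes tested) and 0 had all below (24.6%), with a median log2 fold change of 0.28. The genes of smallest p were Echdc3, an enoyl-CoA hydratase domain gene, at 0.68 (SE 0.20; limma adjusted p = 0.592), Echdc2, of the same family, at 0.53 (SE 0.18; adjusted p = 0.729), and Acad11, an acyl-CoA dehydrogenase family gene, at 0.50. Echdc3 read 7.28, 7.22 and 6.95 in knockouts 1, 2 and 3, against 6.47 in wild type 1, and knockout 3 was thus well above it. For 18 peroxisomal oxidation genes the median was 0.21, with 9 above on all arrays and 1 below. Hacl1, the lyase of alpha-oxidation, stood at 0.40, Scp2, a sterol carrier protein with a peroxisomal thiolase form, at 0.40, and Acox2, the branched-chain acyl-CoA oxidase, at 0.33.

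Among 12 other uptake genes, 7 had all knockout arrays above wild type 1 (23.9% of all genes tested) and 1 had all below (24.6%), and in this list knockout 3 was not the lowest (median differences 0.145, 0.135 and 0.225). Vldlr, the VLDL receptor, which brings triglyceride-rich lipoproteins into the heart, read 10.40, 10.31 and 10.01 in knockouts 1, 2 and 3, against 9.42 in wild type 1, a log2 difference of 0.82 (SE 0.21, adjusted p = 0.530 by limma). Gpihbp1, the capillary anchor of lipoprotein lipase, stood at 0.38 and Cav1, caveolin-1, at 0.29. The 13 other activation genes were split, with 5 above and 4 below on all arrays. Acsl4, an acyl-CoA synthetase that prefers arachidonic acid, stood at -0.47 (SE 0.18; limma adjusted p = 0.816) and the thioesterase genes Acot11 and Acot9 at 0.52 and -0.50.

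For 21 genes of lipid droplets, lipolysis and esterification the median was 0.14, with 8 above and 2 below on all arrays (23.9% and 24.6% of all genes tested). Gpam, the acyltransferase that begins triglyceride synthesis, stood at 0.57 (SE 0.20; limma adjusted p = 0.729), Plin3, a droplet coat gene, at 0.49, and Agpat2, the next acyltransferase, at 0.36. Other regulators (26 genes, median 0.15) had 10 above and 6 below. Pprc1, a coactivator related to PGC-1-alpha, stood at -0.54 (SE 0.18; limma adjusted p = 0.690), Prkag2, a regulatory subunit of AMP-activated kinase, at -0.36, and Rxra, the partner of PPAR-alpha on DNA, at 0.41. Other known PPAR targets had a median of 0.08 over 8 tested of 14 listed, 5 having read below the filter, with 3 above and 0 below on all arrays. Here Slc25a34, a mitochondrial carrier gene, stood at 0.59, Aldh3a2, a fatty aldehyde dehydrogenase gene, at 0.26, and Slc25a42, the mitochondrial carrier of coenzyme A, at 0.40.

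The respiratory chain, which takes up the electrons from beta-oxidation, gave a smaller median difference than the members. Of 24 genes tested, 19 had all knockout arrays above wild type 1 (23.9% of all genes tested) and 0 all below (24.6%). The median log2 fold change was 0.18, and the median difference 0.25, 0.24 and 0.05 in knockouts 1, 2 and 3. The smallest p were those of Cox8b and Cox6a2, muscle subunits of cytochrome c oxidase, at 0.46 and 0.35, and of Sdhb, a subunit of succinate dehydrogenase, at 0.34. Knockouts 1 and 2 were thus above knockout 3 in this list too.

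**Figure D4:**
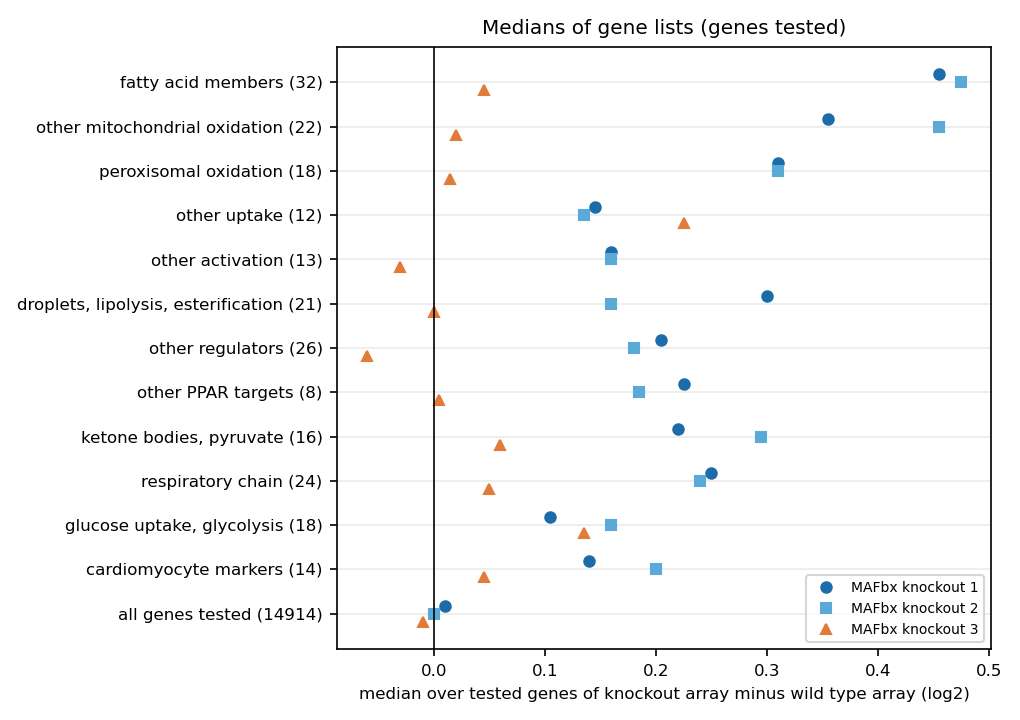
Median over the tested genes of each list (numbers in brackets) of the log2 value of each knockout array minus the wild type array. For the members the medians are 0.455 and 0.475 in knockouts 1 and 2 and 0.045 in knockout 3, and those of all genes tested lie within 0.01 of 0.

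In RNA from whole hearts, fewer cells of a type and less RNA per cell cannot be told apart. Markers of several cell types also differed between these hearts, some in the direction of the members and some in the opposite one. The mean log2 level of 14 cardiomyocyte markers, none at or under the filter level of 4.71, was 12.91, 12.91 and 12.77 in knockouts 1, 2 and 3, against 12.72 in wild type 1. Of these, 8 were above and 1 below wild type 1 on all knockout arrays (23.9% and 24.6% of all genes tested), and the median log2 fold change was 0.13, beside 0.31 for the members. Mean levels of 10 macrophage markers were 7.05, 7.20 and 7.68 against 8.30, with 9 of 10 below on all arrays. For 10 fibroblast markers they were 8.74, 9.12 and 9.96 against 9.40, so that knockouts 1 and 2 were lowest where the members were highest. The 10 endothelial markers gave 9.0, 8.99 and 9.09 against 8.74, with 5 above on all arrays and 0 below, a median log2 fold change of 0.32, and median differences of 0.28, 0.265 and 0.445 in knockouts 1, 2 and 3. The part of these cell types in the differences of the members was not tested.

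Markers of fat and skeletal muscle, tissues that also use fatty acids, read from under the filter level to well above it. Adipoq, the defining adipocyte gene, read 4.83, 5.05 and 4.53 in knockouts 1, 2 and 3, against 4.55 in wild type 1, and Ucp1, that of brown fat, read 4.13, 4.22 and 4.17 against 4.20, under the filter level on every array. Other markers of these lists read higher, as Fabp4 did with 10.95, 10.96 and 11.46 against 10.89. Cidea read 8.22, 8.53 and 8.27 against 8.12. Cox7a1, a gene also in the respiratory chain list, read 12.57, 12.41 and 12.36 against 12.35. The mean level of 9 white fat markers was 6.44, 6.49 and 6.22 against 6.10, with 3 of 8 tested above on all arrays (23.9% of all genes) and 0 below (24.6%). Their median log2 fold change was 0.31, the same as that of the members, and their median differences of 0.355, 0.40 and 0.025 in knockouts 1, 2 and 3 had the members' order of knockout 3 lowest. The part of fat cells in the differences of the members was not tested. That of 6 brown fat markers was 6.40, 6.56 and 6.50 against 6.46, with 2 of 4 tested above and 0 below. For 8 skeletal muscle markers it was 6.25, 6.53 and 6.92 against 6.83, with 3 of 6 tested above and 1 below, and median differences of -0.08, -0.02 and 0.115. The marker below was Acta1, skeletal alpha-actin, which the heart also expresses; it read 8.27, 10.29 and 12.52 in knockouts 1, 2 and 3, against 12.75 in wild type 1 (limma adjusted p = 0.923), and carried nearly all of the difference of the mean in knockouts 1 and 2. The fast myosin genes Myh1 and Myh4 read 4.07 or less on every array, under the filter level. Several markers, Lipe, Plin1, Cidec, Fabp4, Cidea and Gpihbp1 among them, are also in the lists of lipid genes above, and no marker is a member. Cox7a1 and Cox6a2 are also in the respiratory chain list, and Ckm is in both the cardiomyocyte and the skeletal muscle list.

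**Figure D5:**
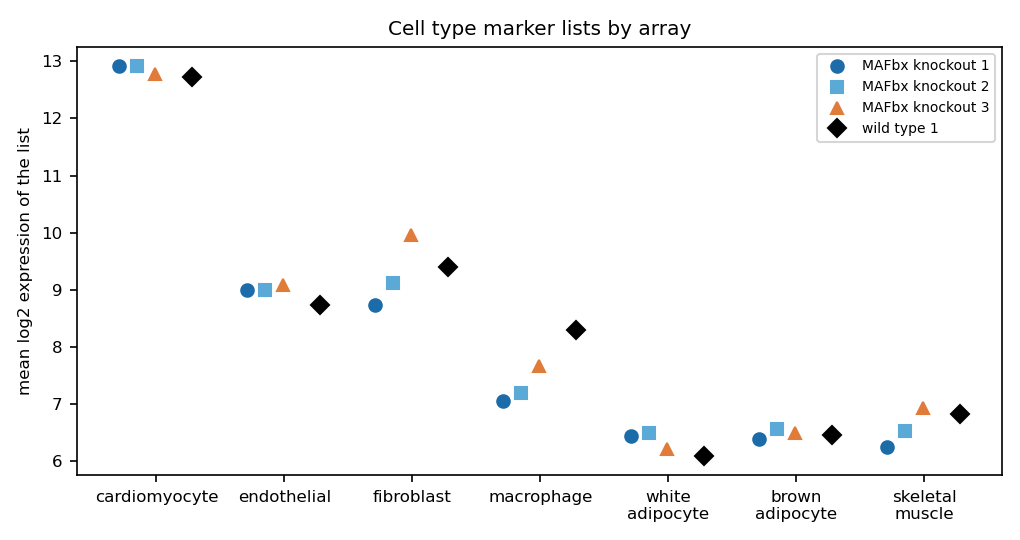
Mean log2 expression of each marker list on each array, with the knockout arrays left of wild type 1 (black diamond); lists are to be compared across arrays, not with each other. Macrophage markers lie between 7.05 and 7.68 in the knockout hearts against 8.30 in the wild type heart, and cardiomyocyte markers between 12.77 and 12.91 against 12.72.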

How the data were processed

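Log2 expression values of 4 Affymetrix Mouse Gene ST arrays were used as deposited. The authors obtained these log2 values by RMA in Affymetrix Expression Console, per the submitters' processing notes. RMA adjusts background, equalises the arrays' distributions and summarises probes. A shift shared by most genes is therefore removed, and differences of dim genes are compressed. Their versions are not stated.

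Of 35556 probe sets, 21789 had 1 gene symbol in the platform annotation, 1621 had several and 12146 none listed. Genes were named only from the first kind, by the probe set with the highest mean. Genes with a mean under the 25th percentile (4.71) were left out. Genotypes were compared over 14914 genes with limma 3.58.1 (R 4.3.3; lmFit and eBayes, two-sided, Benjamini-Hochberg adjustment, threshold 0.05), with 2 residual and 5.04 prior degrees of freedom. The fit was also run on simulated data with independent noise and no sex-linked split among the knockout arrays. The outcome is not given here, and that run cannot show how the fit performs with such a split. The number of arrays limits the precision: with 1 array against 3 the smallest exact permutation p is 0.25, and a p above the threshold is no sign of equal levels.

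The members, lists, tests and alternatives were chosen with earlier results of these data known. Every member is named, and from each other list the 3 genes of smallest unadjusted p. Promoter motifs were chosen after seeing the members' values, and promoter windows are those of RefSeq (GRCm38.p6). Alternatives were renewed quantile normalization, median centring, other filters, averaged probe sets, other variance models, leaving out each knockout array, and Xist, coded as high or low, as a covariate.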

Additional observations from a re-analysis of the deposited data

How the results depend on the processing

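The count of members past the limma threshold was 0 under all 11 alternatives. The members' median of 0.31 lay between 0.30 and 0.36 when normalization, filter, probe set rule or variance model was changed, and between 0.2125 and 0.46 when 1 knockout array was left out. With Xist coded as high or low and taken as a covariate, where the genotype term equals knockout 3 minus wild type 1, it was 0.045. In that setting 12 members changed sign: Lpl (-0.03), Slc27a1 (-0.16), Acot2 (-0.06), Slc25a20 (-0.18), Hadha (-0.01), Hadhb (-0.01), Acaa2 (-0.13), Eci1 (-0.20), Eci2 (-0.07), Decr1 (-0.12), Ppargc1a (-0.03) and Pdk4 (-0.21). No member changed sign under another alternative. The count of members with all knockout arrays above wild type 1 was 16 after centring (22.2% of all genes tested) and 22 after renewed quantile normalization (27.8%). With averaged probe sets it was 21 (23.9%). With a knockout array left out it was 19 to 31 (29.6% to 35.6%), 31 being the count without knockout 3. The count of all genes past the threshold, 1, became 8 after centring, 7 with an intensity trend, 9 with robust eBayes and 2 with the stricter filter. It was 0 with renewed quantile normalization, without a filter, with Xist as a covariate of 2 levels and with any knockout array left out, where 859, 1045, 684 and 427 to 1577 genes had an unadjusted limma p under 0.05 (855 in the whole comparison). The cause was not tested. No paired analysis was possible because the genotypes share only replicate number 1.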

Other observations

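Glucose and pyruvate genes, which carry the fuel that competes with fatty acids, were measured beside the members. Among 18 genes of glucose uptake and glycolysis, 10 lay above and 4 below wild type 1 on all knockout arrays (23.9% and 24.6% of all genes tested), with a median log2 fold change of 0.14 and 0 past the limma threshold. Pfkfb2, the heart form of the enzyme that makes the glycolytic activator fructose 2,6-bisphosphate, read 9.06, 9.52 and 9.01 in knockouts 1, 2 and 3, against 8.17 in wild type 1. Its log2 fold change was 1.03 (SE 0.24; limma adjusted p = 0.462). Slc2a1, the glucose transporter GLUT1, known to be raised in the loaded heart, read 8.13, 8.02 and 8.08 against 8.74, a log2 fold change of -0.66 (SE 0.17; adjusted p = 0.530). Pfkm, muscle phosphofructokinase, read 12.13, 12.06 and 11.69 against 11.41, at 0.55 (SE 0.22). In Pfkfb2 and Slc2a1 knockout 3 lay close to the other knockout hearts and away from wild type 1. Both were named for their small p, which favours genes whose knockout arrays agree, so they are not compared with the members. Over the 18 genes the median differences from wild type 1 were 0.105, 0.16 and 0.135 in knockouts 1, 2 and 3.

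For 16 genes of ketone body and pyruvate oxidation the median was 0.21, with 10 above and 2 below on all arrays (23.9% and 24.6% of all genes tested). Pdhx and Dlat, subunits of the pyruvate dehydrogenase complex, stood at 0.44 and 0.33 and Pdk1, one of its kinases, at 0.29, with a limma adjusted p of 0.880 or more. Pdhx read 9.21, 9.47 and 9.15 in knockouts 1, 2 and 3, against 8.84 in wild type 1, so that all knockout arrays were higher by 0.31 or more.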
